A study of Mus musculus with 4 samples.

Results

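Zfp503 lies on mouse chromosome 14 at the edge of a stretch with few other genes, and the window from 22.4 to 23.7 Mb of that chromosome (genome build mm9) around it carried one of the densest sets of Meis peaks in limb buds. The peaks described here are those with a summit inside this window of 1.3 Mb. The window was chosen by position and by the fold enrichment of a pair of very high sites in these lists, at chr14:22722789-22724324 and chr14:23468822-23469545 in FL, so the heights of those sites are given as a description. It held 89 of the 21338 FL peaks, with 127 of 22906 summits, and 74 of the 16987 HL peaks, with 97 of 17810 summits. A peak is a stretch that the authors' peak caller found enriched in the precipitate over the input, and a summit is a local maximum within it.

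The chromatin came from FL and HL buds of wild-type C57BL/6 embryos at E10.5, pooled over about 500 limbs of each kind, without any mutant allele or treatment in either group. For each limb 1 ChIP library was made, with a mixture of antibodies that recognize Meis1 and Meis2 isoforms, beside 1 input library. The peak lists of both ChIP libraries were used. With 1 library per limb there is no replicate, no test between limbs is possible, and a difference between the limbs and a difference between the libraries cannot be told apart. The mixture does not separate Meis1 from Meis2, and a pool of whole buds does not separate proximal from distal cells. The lists hold no read totals, so the depth of the libraries is unknown from them. The study reports read counts of the libraries, which were not used here. The lists also hold no expression values against which the tissue could be checked.

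Meis1 and Meis2 are TALE homeodomain transcription factors. In the limb bud they mark the proximal part, and they bind DNA with Pbx and Hox partners. Zfp503, also called Nolz1 or Nlz2, encodes a zinc finger protein of the NET family that acts as a transcriptional repressor and recruits Groucho (Tle) corepressors, and it is expressed in the developing striatum, hindbrain, eye and limb. Its paralog in the family is Zfp703. Of its neighbours, Comtd1 encodes a protein with a catechol-O-methyltransferase domain, 1700112E06Rik is the gene now named Lrmda, a leucine-rich protein linked to melanocyte differentiation, and Kcnma1 encodes the pore-forming subunit of the BK potassium channel.

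Zfp503 is transcribed from the minus strand and its start was placed at chr14:22808823-22808823 (mm9). Positions are given below as distances from this start, with upstream meaning higher coordinates. Comtd1, on the minus strand too, started 140.6 kb downstream, and 1700112E06Rik, on the plus strand, started 30.1 kb upstream. For Kcnma1 the peak-to-gene table uses a start 1814 kb upstream, outside the window. By distance in the newer annotation the gene spans 1300 to 2025 kb upstream, so that this is one of its internal starts. In the newer annotation of GRCm38 the 3 distances were the same to the bp. There Lrmda spans 1036374 bp, so that by distance most of the stretch upstream of Zfp503 that looks empty of genes in the peak table lies within Lrmda. Of the FL peaks 70 of 89, and of the HL peaks 56 of 74, fell within Lrmda, with 1 in each limb in an exon of it. Within Zfp503 itself there were 4 FL and 4 HL peaks, and 10 FL and 11 HL peaks lay in no annotated gene.

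The stretch directly before the Zfp503 start is shown because an FL peak covers it, at chr14:22808715-22809158 (mm9) with a fold of 4.03 and its summit 221 bp upstream, while the HL list held no peak there. The 250 bases come from the RefSeq promoter table of GRCm38.p6 (chr14:21989602-21989851, minus strand), in which 1 of 1 gene was matched, and were placed under the peak by distance from the start. The capitals mark the motif GGTGTG.
Zfp503 promoter: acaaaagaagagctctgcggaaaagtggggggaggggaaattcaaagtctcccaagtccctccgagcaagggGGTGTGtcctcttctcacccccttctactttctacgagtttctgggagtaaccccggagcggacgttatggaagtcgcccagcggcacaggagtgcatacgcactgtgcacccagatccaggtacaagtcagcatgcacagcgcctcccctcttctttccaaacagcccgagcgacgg

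Both strands were searched for 4 motifs. The Meis core TGACAG did not occur in these bases, while 19.2% of the 32851 promoters of the table hold it. The octamers TGATTTAT and TGATTGAT, which Meis or Pbx and a Hox protein can bind together, did not occur either, and 0.977% and 0.746% of all promoters hold them. The T-box core GGTGTG occurred once, on the strand of the gene from 178 to 173 bp upstream of the start, and 19.0% of all promoters hold it. The GC content of the 300-base window of the table was 58.3%, against a median of 52.7% over all promoters. These are matches of letters within this window and no evidence of binding or of its absence.

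The window was dense in peaks in both limbs. It held 6.85 FL peaks per 100 kb against 0.812 over all chromosomes, and 5.69 HL peaks per 100 kb against 0.647. When every chromosome was cut into 2032 steps of the same length, the median step held 7 FL peaks and 5 HL peaks, and the highest other steps held 103 and 82. By this count the window ranked 2 in FL and 5 in HL. Peaks were also counted by q-value, which is the p-value as the peak caller adjusted it for multiple testing. With a q-value of at most 0.05 required, the window ranked 1 in both limbs. It held 42 such FL peaks against at most 38 elsewhere and 29 such HL peaks against at most 21. Because the window was placed around known high sites and the other steps were not, these ranks are a description.

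**Figure D1:**
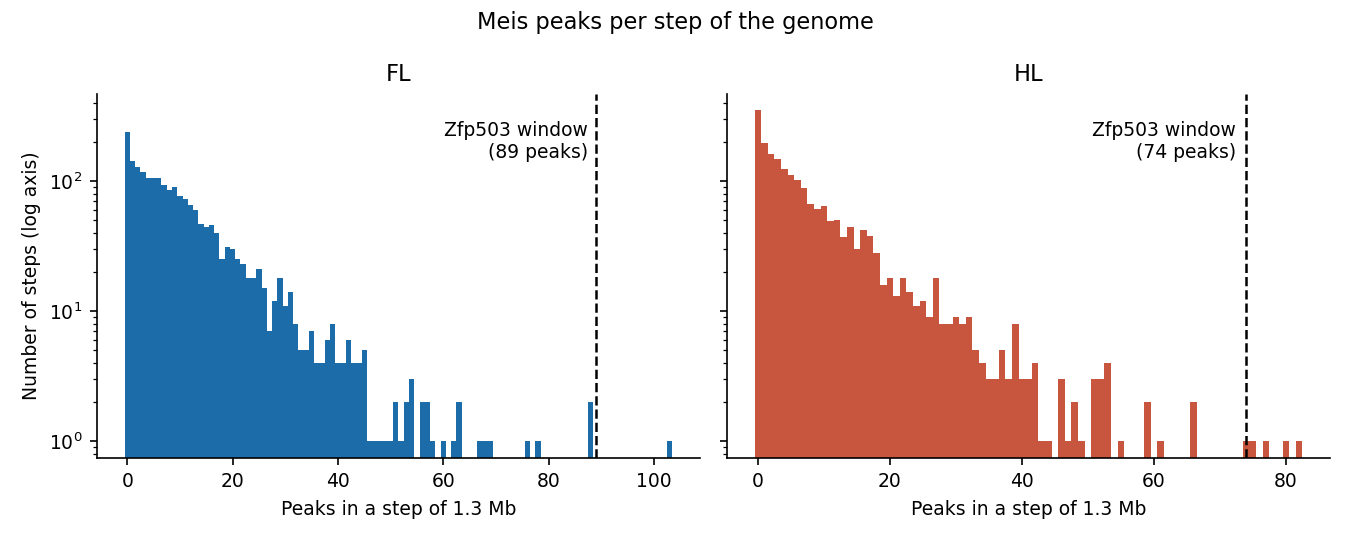
Number of peaks (x axis) in each of 2032 steps of 1.3 Mb, with the number of steps on a log axis, for FL (left) and HL (right); the dashed line is the Zfp503 window. Most steps held few peaks (median 7 in FL and 5 in HL), while the window held 89 and 74.

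A larger share of the window's peaks than of the whole lists passed the threshold set here, a q-value of at most 0.05. In FL 42 of 89 peaks had a q-value of at most 0.05 (47.2%, 95% Wilson interval 37.2 to 57.5), against 17.4% of the FL list. In HL 29 of 74 did (39.2%, 28.9 to 50.6), against 10.1% of the HL list. At a p-value of at most 0.0005 the counts were 54 of 89 in FL (60.7%, list 31.7%) and 42 of 74 in HL (56.8%, list 37%). The intervals cover counting error only, and the high sites that chose the window are among these peaks. With a fold of at least 5 added, 22 FL peaks (7.67% of the list passed) and 14 HL peaks (4.67%) remained. The median fold was 3.51 in FL and 3.29 in HL, against 2.78 in both whole lists, and the folds ran from 2.03 to 22.4 in FL and from 2.01 to 18.2 in HL. The highest folds of the whole lists were 23.4 and 22.7.

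The peaks were also long and often had several summits. Their median length was 252 bp in FL, against 166 bp in the list, and 200 bp in HL, against 132 bp. In FL 26 of 89 peaks held 2 or more summits (29.2%, list 6.14%), and in HL 16 of 74 did (21.6%, list 4.15%). The FL peaks covered 33.1 kb of the window and the HL peaks 21.2 kb.

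The genes divide the window into 4 segments that differed in how many peaks they held. From the window start to Comtd1, a segment of 268 kb holds by distance Dupd1, Dusp13, Samd8, Vdac2 and part of Kat6b. There were 2 FL and 2 HL peaks in it, none with a q-value of at most 0.05. Their folds were at most 2.61 in FL and 3.12 in HL. Between the starts of Comtd1 and Zfp503 there were 13 FL and 12 HL peaks (9.24 and 8.53 per 100 kb), and 8 and 6 had a q-value of at most 0.05. The 30.1 kb between the starts of Zfp503 and 1700112E06Rik held 4 peaks in each limb (13.3 per 100 kb), of which 4 in FL and 2 in HL had such a q-value. Beyond the 1700112E06Rik start, over 861 kb, there were 70 FL and 56 HL peaks (8.13 and 6.50 per 100 kb), with 30 and 21 under the threshold. Thus the peaks were not confined to the surroundings of Zfp503, and their number fell away on the Comtd1 side beyond its start.

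**Figure D2:**
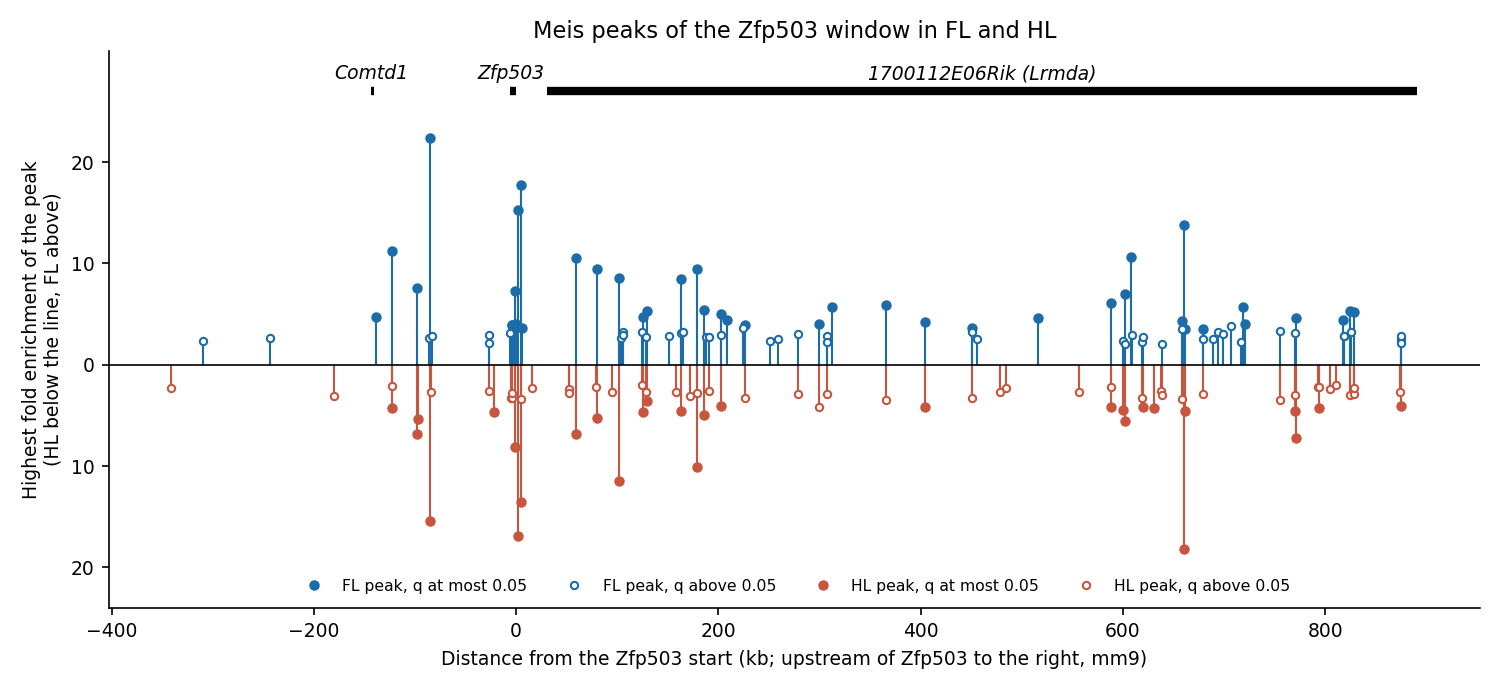
Each peak of the window at its highest summit, by distance from the Zfp503 start in kb (x axis, upstream to the right) and fold enrichment (y axis, FL above and HL below the line); filled points have a q-value of at most 0.05 and black bars are gene bodies placed by distance. The 4 tallest sites, 85.1 kb downstream and 1.85, 4.86 and 660 kb upstream, are the same in both limbs.

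The highest FL peak of the window was the first of the sites that chose the window, 85.1 kb downstream of the Zfp503 start and between it and Comtd1. Its FL fold was 22.4 (q = 1.17e-68), rank 3 of the whole list. The HL peak over it reached 15.4 (q = 4.44e-39), rank 11. By distance it lies in no annotated gene.

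The summits inside this site were ordered differently in the limbs. In FL the higher summit lay at 22723712 with a fold of 22.4, and the summit 582 bp from it, at 22723130, had a fold of 8.15. In HL the summit near the first, at 22723694, had a fold of 6.85, and the one near the second, at 22723183, had 15.4. The FL fold was thus 2.75 times higher at the first position and the HL fold 2.25 times higher at the second. This comparison was chosen after these values were seen, and no error can be put on the summit folds. In both lists together, 227 FL peaks had at least 2 summits with an HL summit within 100 bp, and in 70 of them (30.8%) a different summit was the highest in HL. In 7 (3.08%) the order differed by at least 1.5 times in both limbs. In the window 3 of 9 such peaks differed in order, and 1, this site, by at least 1.5 times.

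Next to the Zfp503 start stood a pair of high sites that both limbs shared. The first, 1.85 kb upstream, had a fold of 15.3 in FL (q = 1.92e-50, rank 28) and 16.9 in HL (q = 6.51e-52, rank 7), with the summits 6 bp apart. In FL it covered chr14:22810148-22810977. The second, 4.86 kb upstream at chr14:22813228-22814126 in FL, had a fold of 17.7 in FL (q = 3.64e-47, rank 14) and 13.6 in HL (q = 9.03e-36, rank 18). By distance the second falls in an exon of C130012C08Rik, a transcript of unknown coding status on the opposite strand to Zfp503, which starts and ends between 6.50 and 2.84 kb upstream. FL was the higher limb at one site and HL at the other.

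All 9 FL peaks within 10 kb of the start lay in one cluster of 12.4 kb, chr14:22802169-22814549, where neighbouring FL peaks were at most 10 kb apart, and 8 of them had a q-value of at most 0.05. The HL list held 7 peaks in the same stretch. Inside the gene, in an intron 0.885 kb downstream of the start, the folds were 7.33 in FL and 8.08 in HL, with summits 8 bp apart. Toward the end of the gene, from 3.15 to 4.42 kb downstream, 3 FL peaks had folds of 3.77 to 3.96 with q-values of 0.0354 to 0.0480. The HL peaks over that stretch had folds of 2.74 to 3.33, and none had a q-value of at most 0.05. The remaining FL peaks were the promoter peak, with a fold of 4.03 (q = 0.0189), 1 peak 5.61 kb upstream with a fold of 3.67 (q = 0.0440), and 1 beyond the gene with a fold of 3.09 (q = 0.712). Of these 9 FL peaks, the intron peak and the pair of high sites were the only ones with a fold above 5, and the same 3 sites held the HL peaks above 5.

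The other site that chose the window lay 660 kb upstream, in an intron of Lrmda by distance. It was the highest HL peak of the window, with a fold of 18.2 over chr14:23468788-23469439 (q = 2.91e-44) and rank 4 in the HL list. In FL the fold was 13.8 (q = 5.92e-43) and the rank 49. A smaller peak followed 662 kb upstream in both limbs, with a fold of 3.51 in FL and 4.53 in HL.

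Most of the other high sites of the window were present in both limbs. Of the 10 highest FL peaks, with folds from 8.54 to 22.4, 9 overlapped an HL peak. Of the 10 highest HL peaks, with folds from 6.80 to 18.2, 10 overlapped an FL peak. Among all listed peaks with a q-value of at most 0.05, 67% in FL and 89.3% in HL overlapped a peak of the other limb. The share among equally high peaks of the lists was not counted. In 7 sites the peak was among the 10 highest in both limbs, and FL had the higher fold in 3 of them and HL in 4. Upstream of the 1700112E06Rik start the first high sites came 58.9 kb upstream of Zfp503, with a fold of 10.6 in FL and 6.80 in HL, and 79.8 kb upstream, with 9.48 and 5.22. Further on, the site 101 kb upstream had a fold of 8.54 in FL and 11.5 in HL, and the site 179 kb upstream had 9.48 and 10.1. On the Comtd1 side, the site 97.7 kb downstream had 7.55 in FL and 6.80 in HL. Between the highest summits, FL was thus higher at the sites 58.9 and 79.8 kb upstream and HL at the site 101 kb upstream. At 58.9 kb upstream these summits lay 462 bp apart, and the higher limb depended on the position. At the highest FL summit the fold was 10.6 in FL and 5.64 in HL. At the highest HL summit it was 6.80 in HL and 4.87 in FL, 8 bp away.

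The window holds 0.417% of all FL and 0.436% of all HL peaks. Of the 50 highest FL peaks 4 were in the window, and of the 500 highest 13. Of the 50 highest HL peaks 5 were in the window, and of the 500 highest 10. These counts include the pair of sites whose heights chose the window, and without them they were 2 and 11 in FL and 3 and 8 in HL. The median rank of the window's peaks was 4703 of 21338 in FL and 3828 of 16987 in HL, so that most of them were far from the top.

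Overlap between the limbs was counted as at least 1 shared bp. Of the 89 FL peaks 43 shared bases with an HL peak (48.3%, interval 38.2 to 58.5), against 22.6% of the FL list. Of the 74 HL peaks 50 did so with an FL peak (67.6%, interval 56.3 to 77.1), against 29% of the HL list. Among peaks with a q-value of at most 0.05 the shares were close to those of the lists: 30 of 42 in FL (71.4%, list 67%) and 26 of 29 in HL (89.7%, list 89.3%). Merging the overlapping peaks left 111 sites, of which 41 were shared, 46 were in the FL list only and 24 in the HL list only.

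The 43 overlapping pairs went in both directions. The log2 ratio of FL to HL fold, between the highest summits of the paired peaks, had a median of 0.12 and ran from -0.94 to 1.41, with FL higher in 26 pairs and HL in 17. Over all 4813 pairs of the lists the median was 0.17, with FL higher in 62.1%. The summits of a pair were a median of 32 bp apart in the window and 30 bp in the lists, and in 29 of 43 pairs they were within 50 bp (67.4%, lists 67.2%). In 11 pairs they were over 100 bp apart (25.6%, lists 14.5%). Of the 43 pairs, 21 had a q-value of at most 0.05 in both limbs (24.9% of all pairs did), 9 in FL only (26.9%), 5 in HL only (7.54%) and 8 in neither. The HL peak 875 kb upstream was counted repeatedly, among the pairs with HL only and among those with HL higher.

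**Figure D3:**
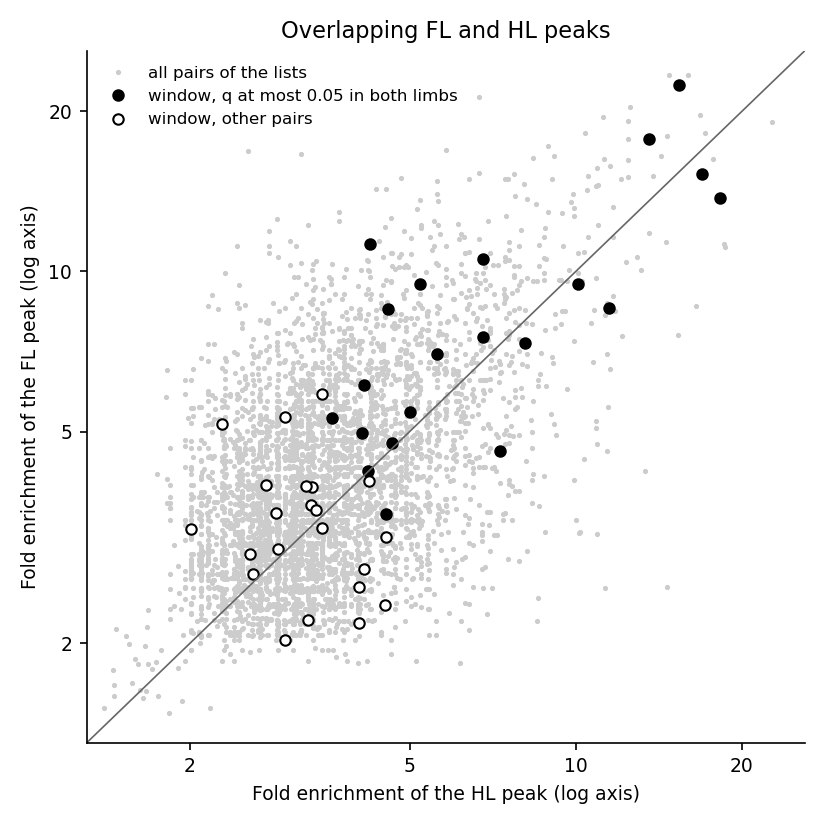
Fold enrichment of each FL peak (y axis) and of the HL peak that overlaps it (x axis), both on log axes; black points are the 43 pairs of the window, filled where the q-value is at most 0.05 in both limbs, grey points are all 4813 pairs, and the line marks equal folds. The window's pairs lie on both sides of the line, 26 above and 17 below, with log2 ratios from -0.94 to 1.41.

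Between the highest summits of the peaks, and among pairs with a q-value of at most 0.05 in at least 1 limb, the largest ratio toward FL was at a site 123 kb downstream of the Zfp503 start and 18.0 kb from that of Comtd1. There the fold was 11.3 in FL (q = 9.87e-25, chr14:22685388-22686491) and 4.25 in HL (q = 0.0209), with the summits 5 bp apart, a log2 ratio of 1.41. The next were 828 kb upstream, with 5.17 in FL and 2.29 in HL at summits 289 bp apart, and 163 kb upstream, with 8.49 and 4.57 at summits 22 bp apart. At the sites 123 kb downstream and 163 kb upstream the peak had a q-value of at most 0.05 in both limbs. The ratios at 123 kb downstream (1.41) and 828 kb upstream (1.18) lay outside the range of -0.71 to 1.14 that held the middle 90% of all pairs. So did ratios toward HL, at 600 kb upstream (-0.94) and, for the FL peak with a fold of 2.18, at 875 kb upstream (-0.89). Such a range leaves out a share of all pairs by construction.

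Measured the same way, the ratios toward HL were smaller. At a site 600 kb upstream the fold was 2.36 in FL (q = 1) and 4.52 in HL (q = 0.000471), 1.92 times higher in HL, but these summits were 223 bp apart, and the HL summit 41 bp from the FL summit had a fold of 3.54. At the far end of the window, 875 kb upstream, an HL peak with a fold of 4.05 overlapped FL peaks with folds of 2.18 and 2.55. Among the pairs with a q-value of at most 0.05 in both limbs, the largest ratio toward HL was at the site 771 kb upstream, with 4.61 in FL and 7.28 in HL, 1.58 times higher in HL.

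Between single summits within 100 bp of each other the order of the ratios was different. The largest ratio toward FL was then at the site 85.1 kb downstream, where 22.4 in FL stood against 6.85 in HL 18 bp away (log2 ratio 1.71), ahead of the 1.41 at 123 kb downstream. Toward HL it was 620 kb upstream, with 1.82 in FL and 4.14 in HL (log2 ratio -1.18). That FL summit was the lower of 2 in its peak. The higher FL summit, with a fold of 2.75, lay 104 bp from the HL summit, just past the limit, and gave a log2 ratio of -0.59. The other summit of the tall site 85.1 kb downstream followed, with 8.15 in FL and 15.4 in HL (log2 ratio -0.92). There the folds differed, but the peak caller's −log10 p was close, at 43.1 in FL and 44.7 in HL.

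Peaks with a q-value of at most 0.05 in one limb and no overlapping peak in the other were 12 of 89 in FL (13.5%, list 5.76%) and 3 of 74 in HL (4.05%, list 1.09%). Taken as a share of the peaks with such a q-value, they were 12 of 42 in FL (28.6%, list 33.0%) and 3 of 29 in HL (10.3%, list 10.7%), near the shares of the lists. The highest was an FL peak 608 kb upstream of Zfp503, at chr14:23416714-23417286, in an intron of Lrmda by distance. Its fold was 10.7 (q = 2.49e-18), and the nearest HL summit was 6.42 kb away. Of the 16525 FL peaks that no HL peak overlapped its fold ranked 3, where the highest was 12.6. The other 11 FL peaks had folds of 3.67 to 5.71. They included the promoter peak, a peak in an exon of Zfp503, and a peak 139 kb downstream, near the Comtd1 start, with a fold of 4.69 (q = 0.000321).

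The 3 HL peaks lay 21.9 kb downstream and 631 and 794 kb upstream, with folds of 4.64, 4.25 and 4.25. The highest of them, at chr14:22786833-22787163 (q = 0.00406), ranked 76 among the 12065 HL peaks that no FL peak overlapped. Absence from a list means that no peak was called there, not that the factor was absent.

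**Figure D4:**
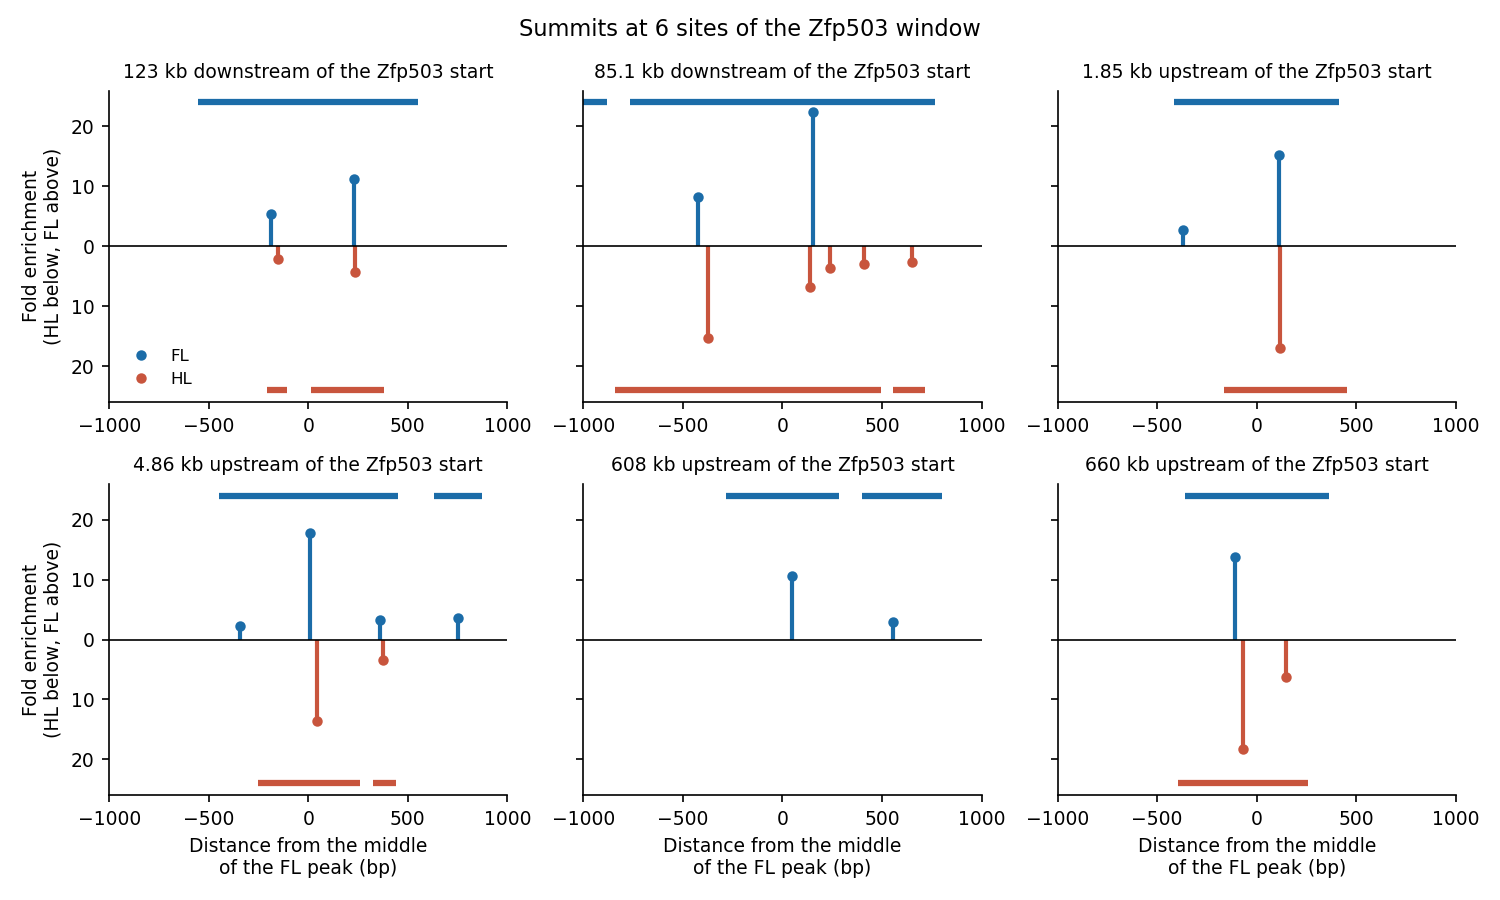
Summits within 1000 bp of the middle of 6 FL peaks (x axis, bp), with fold enrichment on the y axis, FL above and HL below the line; the bars at the top and bottom are the called peaks. At 85.1 kb downstream the higher summit differs between FL (22.4) and HL (15.4), and at 608 kb upstream HL has no summit beside the FL fold of 10.7.

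The peaks of one limb only included runs of successive sites. Such peaks made up most of both lists. Only 22.6% of all FL peaks and 29% of all HL peaks overlapped a peak of the other limb. The runs given here are the longest in the window, and whether they exceed those elsewhere was not tested. The longest run of shared sites held 3. From 689 to 721 kb upstream 7 successive sites were in the FL list only, at chr14:23497798-23530187, with folds of 2.29 to 5.68, and 2 of them had a q-value of at most 0.05. This run belongs to a cluster of 9 FL peaks over 42.4 kb in which the HL list held 1 peak, with a fold of 2.87. From 793 to 811 kb upstream 5 successive sites were in the HL list only, at chr14:23601336-23619582, with folds of 2.03 to 4.25, and 1 had such a q-value. Most peaks of both runs thus had q-values above 0.05. With neighbouring FL peaks at most 10 kb apart joined, the 89 FL peaks formed 34 clusters, 15 of them of 1 peak, and 4 clusters of 5 or more peaks held 29 peaks.

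The window's edges differed in the values beside them. The first FL and HL peaks inside it had folds of 2.31 and 2.33. The nearest FL peak before it, 20.3 kb outside, reached 2.35 (q = 1). The nearest HL peak before it, 272 kb outside, reached 4.89 (q = 5.42e-07). At the other end the last peaks inside had folds of 2.86 in FL (q = 0.815) and 4.05 in HL (q = 0.0209). The first ones beyond had 5.60 in FL (q = 4.26e-05), 11.5 kb outside, and 3.09 in HL (q = 1), 26.2 kb outside. The peaks went on past this edge: between it and the start used for Kcnma1, over 923 kb that end inside that gene, the FL list held 32 peaks and the HL list 15, and 12 and 4 of them passed the threshold. The highest of these FL peaks, picked out after its value was seen, lay 1006 kb upstream of Zfp503 with a fold of 16.6 (q = 9.15e-39, chr14:23814377-23815243), where the HL fold was 3.18 (q = 0.514).

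Among the NET family and the Groucho corepressors (Zfp503, Zfp703, Tle1, Tle2, Tle3 and Tle4), 4 of 6 genes could be placed on mm9. They were placed from a table of genes near shared peaks, so that having peaks nearby is no finding. Within 100 kb of the Zfp503 start the FL list held 17 peaks, 12 of them under the threshold of 0.05 on q, and the HL list 20, 9 of them under it. Around Zfp703, its paralog, there were 22 FL peaks, 8 under the threshold and the highest at a fold of 11.6, and 24 HL peaks, 4 under it and the highest at 11.7. Both highest Zfp703 peaks stood 7.44 kb downstream of its start. Within 500 kb the counts under the threshold were 28 and 18 around Zfp503 and 32 and 19 around Zfp703.

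Of the 4 corepressor genes only Tle3 and Tle4 were placed, and within 100 kb their peaks were fewer and lower than those of Zfp503 and Zfp703. Around the Tle3 start the FL list held 15 peaks, 3 under the threshold and the highest at a fold of 7.62, and the HL list 11, 1 under it and the highest at 5.81. Around Tle4 there were 3 peaks in each limb, with highest folds of 4.06 in FL and 2.66 in HL, and 1 in FL and 0 in HL had a q-value of at most 0.05. Within 500 kb this order of heights did not hold, since the highest folds there were 18.2 in FL and 15.3 in HL for Tle4, 7.62 and 5.81 for Tle3, and 16.9 and 11.7 for Zfp703. Tle4 then had 6 FL and 4 HL peaks under the threshold, and Tle3 had 8 and 1. Around the start used for Kcnma1 no FL peak lay within 100 kb, and an HL peak 2.08 kb from it had a fold of 2.98 (q = 1).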

How the data were processed

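Chromatin of pooled FL and HL buds was precipitated and sequenced by the authors, with 1 ChIP and 1 input library per limb (4 libraries). Only the 2 deposited peak lists were analysed here. Per the labels' processing notes and the methods, CASAVA 1.8.2, cutadapt 1.3, BWA and SAMtools were used, the build was mm9, and MACS2 called peaks against the input with several summits per peak. The deposited fold is the authors' ratio of ChIP signal to background at a summit. The −log10 values of p and of q in the deposited lists are the peak caller's, and the lists reach a p-value of 0.022. The deposited score was not used. No p-value was computed here.

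Summits with the same start and end were joined into 1 peak, with its highest fold and lowest q. A peak was taken into the window by its highest summit. Peaks with a q-value of at most 0.05 were counted, with Wilson intervals (95%, counting error only), against the same share of the whole list. Overlap meant at least 1 bp. Each FL peak was paired with 1 HL peak, the overlapping one of the highest fold, and an HL peak could be paired repeatedly. Read depth is unknown from these lists.

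No mm9 annotation was used. Gene starts were derived from summit positions and the distances in the study's peak-to-gene table, and all distances of a gene gave the same start. GENCODE M21 (GRCm38) genes and RefSeq promoters were placed by distance from the Zfp503 start, with no coordinates converted.

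Named were the genes Zfp503, Comtd1, 1700112E06Rik and Kcnma1, the list of NET family and Groucho genes, the 10 highest peaks per limb, every peak within 10 kb of the Zfp503 start, the peaks of 1 limb with a q-value of at most 0.05, the 3 pairs of largest ratio in each direction, and the peaks nearest the edges. The window, genes and lists were chosen with earlier results of these data known. Alternatives changed the threshold, overlap, steps, distance, ranking and gap. The steps were tested on simulated peaks. Intervals came from scipy 1.17.1, tables from pandas 2.3.3 and numpy 2.4.6, and plots from matplotlib 3.10.9, in Python 3.11.15.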

Additional observations from a re-analysis of the deposited data

How the results depend on the processing

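Of 37 alternatives, 17 were classed as the same as the value given and 20 as moved. The class of the same still holds sizeable changes. At a p-value of at most 0.0005 the 42 FL and 29 HL peaks became 54 and 42, and with a gap of 5 kb the 34 clusters became 43. The change of sign given below is in this class too. No alternative could change a test, since there was none. No paired analysis was possible because each limb gave 1 library and no result comes from a test, and no replicate could be left out. With a fold of at least 5 added to the threshold, the counts of 42 FL and 29 HL peaks became 22 and 14. With at least 50% of both peaks shared, the overlapping shares of 48.3% in FL and 67.6% in HL became 30.3% and 36.5%. They were 71.4% and 89.7% among peaks with a q-value of at most 0.05, and 64.8% and 85.7% among those with a p-value of at most 0.0005. The rank of 2 among steps in FL became 1 by peaks with a q-value of at most 0.05 and 1 by summits. The rank of 5 in HL became 1 and 1 by these counts, and 3 with the steps shifted by 650 kb. The 17 FL and 20 HL peaks within 100 kb of the Zfp503 start became 11 and 10 within 50 kb, and 9 and 8 within 20 kb. Ranked by −log10 p, the highest HL peak moved from rank 4 to 9. With a gap of 20 kb the 34 clusters became 19. Divided by the median ratio of all pairs, the median log2 ratio of 0.12 became -0.05, a change of sign in a value that had no test. The 3 peaks with another summit order became 1 when a difference of at least 1.5 times in both limbs was required, which was chosen after seeing the data.

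Without replicates, neither the folds nor the ratios between limbs carry an error beyond counting, and the lists show called peaks only.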
